A study of Lytechinus variegatus with 9 samples.

Results

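Gene expression was compared between 3 matings of the sea urchin Lytechinus variegatus, using all 9 libraries of the series, since every library belongs to a mating. Each mating supplied 1 culture of embryos treated with 1 µM K02288, which blocks signalling by type I BMP receptors, 1 treated with 75 nM axitinib, which blocks the VEGF receptor, and 1 treated with DMSO, the solvent. All embryos were wild type and were grown in artificial seawater at 21 °C. They entered drug or DMSO at about 18 to 20 hours post-fertilization (hpf) and stayed in it continuously. They were collected whole at 2 days post-fertilization (dpf), as late plutei. Mating 1, mating 2 and mating 3 are the replicate numbers of the labels, and the study's methods give each replicate as a separate mating.

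The adults of the study came from 2 suppliers, in North Carolina and in Florida, and the sources used here do not say which supplied which mating. Each mating is 1 set of embryos, so that the parents, the culture, the collection and the RNA extraction of a mating cannot be told apart. The 3 libraries of a mating differ in treatment, and p-values below measure differences between matings against the spread of these libraries once each treatment's average shift is removed. They say nothing of how other matings would vary. In whole embryos, fewer cells of a type and less RNA per cell cannot be told apart.

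Sea urchins are outbred animals with high heterozygosity, and their genomes hold large families of immune receptors, lectins and detoxifying enzymes. Genes of such families often lie side by side, and sequence differences between parents can change both a gene's transcription and how well its reads map to a single reference genome. Early in development the embryo uses maternal RNA, whereas at the pluteus stage most transcripts come from the zygotic genome.

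The libraries held between 9359212 and 11815263 counts, and between 19634 and 20178 of the 26814 genes had at least 1 count. Mitochondrial genes took 4.92% to 6.49% of counts in mating 1, 4.70% to 4.82% in mating 2 and 3.38% to 4.32% in mating 3. After each treatment's mean was removed, the log2 levels of libraries of the same mating correlated across genes with r between 0.719 and 0.762 in the 9 such pairs. The 18 pairs that shared neither mating nor treatment had r between -0.424 and -0.331. Removing each treatment's mean over the 3 matings itself pushes correlations between matings below 0. Their negative sign therefore does not show that matings were opposed. Genes are not independent replicates, and these values describe the libraries only. Marker genes of the main cell types of the pluteus were present in every mating. The summed level of 16 primary mesenchyme cell (PMC) genes ran from 34330 to 57360 normalized counts in mating 1, from 31000 to 46680 in mating 2 and from 24310 to 47480 in mating 3. A normalized count is a count divided by the library's effective size relative to the mean of the 9 libraries.

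Mating was the largest source of variation in most genes. Of 16866 genes with enough counts to test, 8895 (52.7%) differed between the matings at an adjusted p under 0.05 (edgeR quasi-likelihood test with 2 degrees of freedom, treatment as a blocking term, Benjamini-Hochberg adjustment), and 9974 did so at an unadjusted p under 0.05. The range of a gene, meaning the difference between its highest and lowest fitted mating mean on the log2 scale, had a median of 0.57 with quartiles of 0.32 and 1.01. A total of 3524 genes (20.9%) both passed the test and had a range of at least 1, that is, at least a doubling between matings, and they are called strongly varying below. For 1317 genes the range was at least 2 and for 649 at least 3. When the variation of each gene was divided by source, mating took a median of 58.4%, treatment 14.8% and the remainder 17.7%. Mating was the largest of the 3 for 11122 genes (65.9%), treatment for 2874 and the remainder for 2870.

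No mating stood apart from the others by count. Against the mean of the other matings, 5367 genes (31.8%) differed in mating 1, of which 2851 (16.9%) were higher and 2516 (14.9%) lower. In mating 2 there were 6135 such genes (36.4%), 3116 (18.5%) higher and 3019 (17.9%) lower. In mating 3 there were 5948 (35.3%), 3074 (18.2%) higher and 2874 (17%) lower. The pairs gave similar counts, with 5684 genes (33.7%) between matings 2 and 1, 5574 (33%) between matings 3 and 1 and 6226 (36.9%) between matings 3 and 2. Of the 16866 tested genes, the 3 libraries of a mating lay wholly outside the other 6 in 2831 for mating 1, 3324 for mating 2 and 3169 for mating 3. Some genes would do so without any difference between matings, and their number was not computed. Leaving out any 1 treatment lowered the number of calls, most of all for K02288. Mating 1 had 3472 calls without K02288, 3903 without axitinib and 4119 without DMSO. In the same order, mating 2 had 4156, 4529 and 5041 and mating 3 had 3809, 4500 and 4824. Between matings 3 and 1 there were 3432, 4129 and 4259. Fewer libraries can by themselves lower the calls, so a dependence on the K02288 libraries was not shown.

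The genes highest in mating 1 relative to the others included a receptor, a matrix protein and ribosomal protein copies. LOC121429174, a GABA type B receptor subunit 2-like gene for a metabotropic receptor of the inhibitory transmitter GABA (chromosome 15, 13710724 to 13716896), had 200, 161 and 212 normalized counts in mating 1 with K02288, axitinib and DMSO. It had 1.90, 0 and 0 in mating 2 and none in any library of mating 3, so that mating 1 was at least 61.6-fold higher than mating 3 at a limit of 3 counts per library. The groups did not overlap, and the difference of mating 1 from the others had an adjusted p of 4.67e-10 (edgeR). LOC121413151, a gene like fibrillin-1, which builds extracellular microfibrils (chromosome 1, 37265593 to 37286043), had 184 to 215 in mating 1 against 0 to 2.70 in the other 6 libraries, a log2 difference of 7.55 with an SE of 0.37 (adjusted p = 1.32e-10, edgeR). Both genes were high in mating 1 under all 3 treatments.

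Among the genes lowest in mating 1, LOC121426876, like the ATP-gated ion channel P2X7 (chromosome 13, 34022179 to 34025636), had no count in any library of mating 1. It had 124, 104 and 88.4 normalized counts in mating 2 and 56.4, 72.4 and 84.8 in mating 3 with K02288, axitinib and DMSO, so that mating 1 was at least 33.9-fold lower than mating 2. LOC121418006, a putative methyltransferase (chromosome 7, 33302945 to 33341484), had 0, 1 and 0 in mating 1 against 88 to 128 in the other libraries (adjusted p = 3.1e-09, edgeR). LOC121408412, a copy of the RNA-binding protein Musashi homolog 2, a translational regulator (chromosome 2, 55640675 to 55689207), had 4.30 to 7.30 in mating 1, against 189 to 290 in mating 2 and 79 to 138 in mating 3. Its log2 difference of mating 1 from the others was -4.73 with an SE of 0.25 (adjusted p = 3.18e-10, edgeR). For all 3 genes the libraries of mating 1 lay below all the others under each treatment.

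Mating 2 had its own set. LOC121406200, like the cell-matrix adhesion receptor subunit integrin alpha-V (chromosome 1, 21609926 to 21633098), had 236, 133 and 218 normalized counts in mating 2 with K02288, axitinib and DMSO. In mating 1 it had 2.90, 2.10 and 0, and in mating 3 no count, so that mating 2 was at least 63.1-fold higher than mating 3 (adjusted p for mating 2 = 5.34e-10, edgeR). LOC121408512, like subunit 4 of the replicative DNA polymerase delta (chromosome 2, 59802014 to 59808689), had 362, 316 and 229 in mating 2, against 1.90, 0 and 0 in mating 1 and 0, 0 and 2.10 in mating 3. LOC121421603, described as like a spore coat protein SP96 of slime moulds and of unknown role in sea urchins, had 133 to 209 in mating 2 against 0 to 9.60 elsewhere, a log2 difference of 4.96 with an SE of 0.37 (adjusted p = 2.56e-08, edgeR). P2X7 also counted as higher in mating 2, which was set against the mean of the other matings, and mating 1 had no count. Its 88.4 to 124 normalized counts in mating 2 lay only a little above the 56.4 to 84.8 of mating 3.

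LOC121421156, like the ubiquitin ligase TRIM2 (tripartite motif-containing 2; chromosome 9, 19138325 to 19164754), had no count in mating 2, 1 to 3.30 normalized counts in mating 1 and 255, 242 and 332 in mating 3 with K02288, axitinib and DMSO. Mating 3 was at least 89.1-fold higher than mating 2. LOC121419947, like the glucuronidating enzyme UDP-glucuronosyltransferase 2C1 (chromosome 8, 9687720 to 9695856), had 0, 3 and 0 in mating 2, against 113, 120 and 184 in mating 1 and 201, 196 and 328 in mating 3. LOC121412899, a pathogen-related protein-like gene (chromosome 1, 35910771 to 35930577), had 0, 3 and 0 in mating 2, against 211 to 234 in mating 1 and 29.3 to 60.1 in mating 3. The order of matings thus differed from gene to gene.

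In mating 3, LOC121413214, described as like the yeast cell wall protein DAN4 (chromosome 4, 3426826 to 3447940), had 737, 1043 and 652 normalized counts with K02288, axitinib and DMSO, against 0 to 10.6 in the other 6 libraries. Its log2 difference was 8.03 with an SE of 0.23 (adjusted p = 1.42e-13, edgeR). LOC121426369, like ficolin-1, a carbohydrate-binding lectin of innate immunity in vertebrates (chromosome 13, 29709566 to 29713647), had 145, 161 and 149 in mating 3 against 0 to 3.80 elsewhere. The lowest in mating 3 included LOC121405745, like the interferon-inducible gene IFI27 of mammals (chromosome 19, 466094 to 484382), with 0 to 4.50 in mating 3 against 109 to 203 elsewhere and a log2 difference of -5.91 with an SE of 0.34 (adjusted p = 1.32e-09, edgeR). LOC121408495, like the flagellar outer-arm dynein light chain LC6 (chromosome 2, 59042996 to 59045311), had 2.10 to 4.70 in mating 3 against 117 to 180 elsewhere. LOC121425345, like the secreted glycoprotein CTHRC1 (collagen triple helix repeat-containing 1; chromosome 12, 23979400 to 23984910), had 1.90 to 7.80 in mating 3 against 81.3 to 164 elsewhere, a log2 difference of -4.46 with an SE of 0.32 (adjusted p = 1.55e-08, edgeR).

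**Figure D1:**
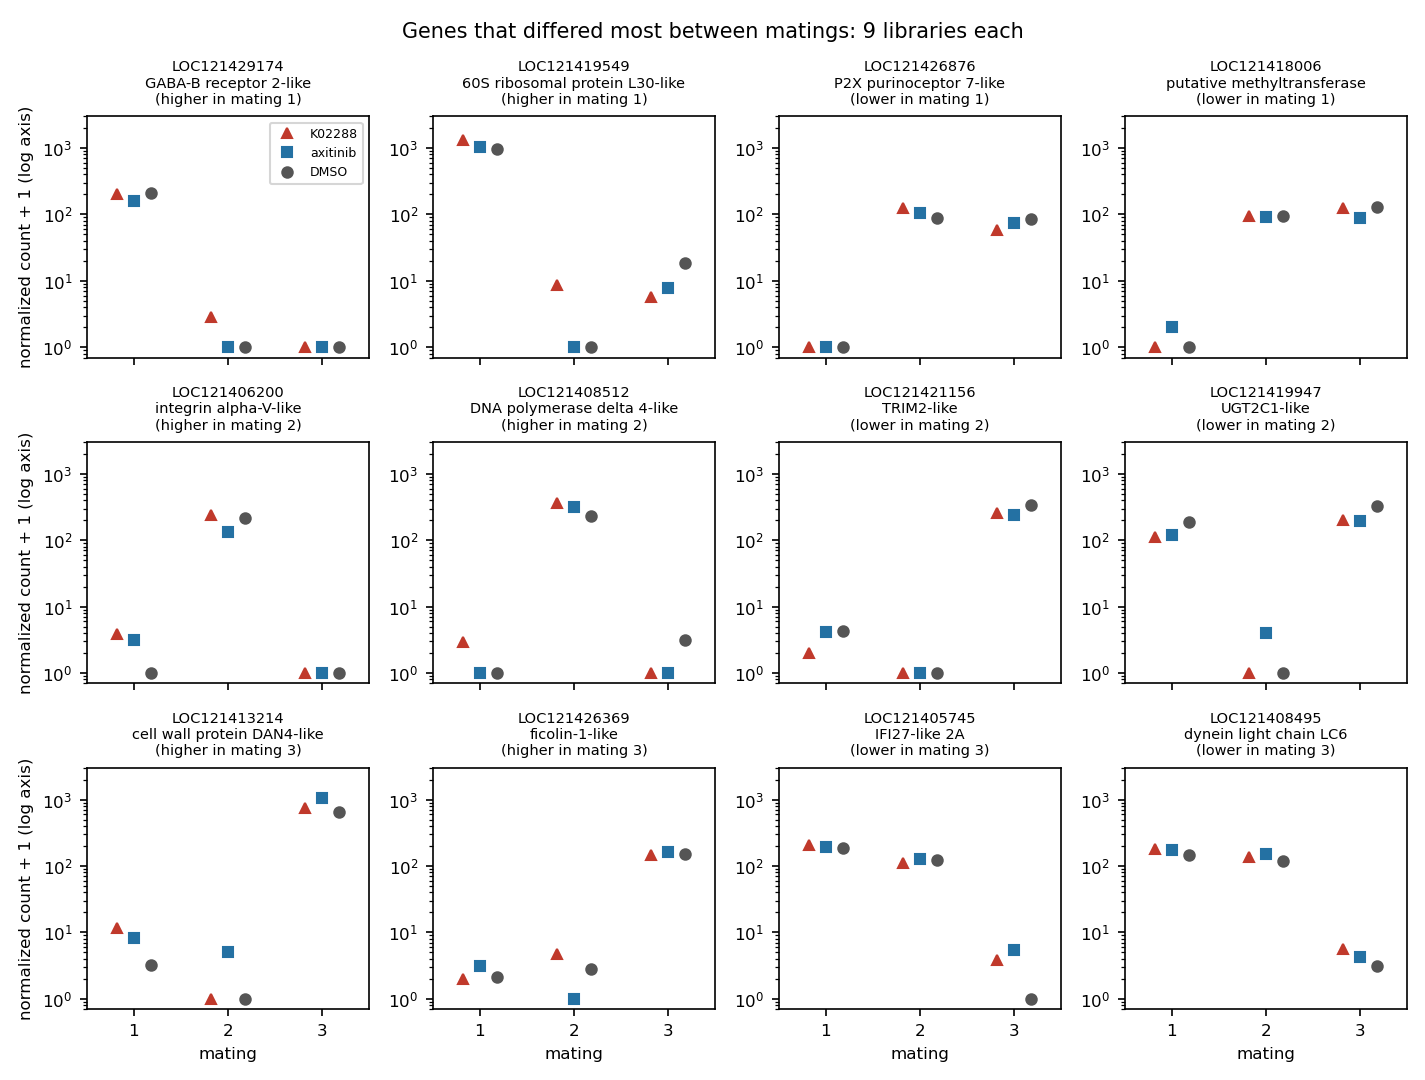
Normalized counts plus 1, on a log axis, of 12 genes named for the largest differences of 1 mating from the others, with mating on the horizontal axis, 1 point per library and the treatment shown by colour and shape. In each panel the 3 libraries of the named mating lie apart from the other 6, as for ficolin-1-like, with 145 to 161 in mating 3 and 0 to 3.80 in matings 1 and 2.

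Several of the genes that differed most had other copies with the same product name, and the copies together differed far less. LOC121419549, a gene for ribosomal protein L30 of the large ribosomal subunit (chromosome 1, 63517241 to 63522410), had 1311, 1048 and 949 normalized counts in mating 1 with K02288, axitinib and DMSO, against 0 to 7.70 in mating 2 and 4.70 to 17.8 in mating 3. Its log2 difference of mating 1 from the others was 7.76 with an SE of 0.26 (adjusted p = 1.06e-12, edgeR). Its main partner, LOC121418186 (chromosome 1, 58077587 to 58083095), had 3112 ± 406 in mating 1, 4669 ± 475 in mating 2 and 4397 ± 777 in mating 3 (mean ± SD, n = 3 libraries each). Summed over 3 genes, L30 came to 4263 ± 589, 4705 ± 484 and 4442 ± 792 in matings 1, 2 and 3, which differed by less than the spread between libraries.

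Translation elongation factor 2, which moves the ribosome along the mRNA, gave the same picture at a much higher level. LOC121416118 (chromosome 5, 39577739 to 39608040) had 9185 ± 310 normalized counts in mating 1, 83.9 ± 26.9 in mating 2 and 2423 ± 214 in mating 3, and its log2 difference of mating 2 from the others was -5.82 with an SE of 0.15 (adjusted p = 5.24e-14, edgeR). The partner LOC121416018 (chromosome 5, 35884278 to 35922384) had 22239 to 24703 in mating 1, 28704 to 33896 in mating 2 and 27886 to 29348 in mating 3. The 2 genes together averaged 32000, 32140 and 31190 in matings 1, 2 and 3. LOC121416938, for ribosomal protein L12 (chromosome 6, 7346746 to 7359335), had 63.5 to 70.2 in mating 3 against 1905 to 3109 elsewhere, a log2 difference of -5.16 with an SE of 0.12 (adjusted p = 9.43e-15, edgeR). A second L12 gene, LOC121416898 (chromosome 6, 5004841 to 5019774), was higher where it was lower, with 2182 to 2493 in mating 3 against 494 to 1468 elsewhere. LOC121423760, a ribosomal protein S13-like gene, had 209 to 244 in mating 1 against 1 to 8.40 elsewhere, beside a main S13 gene, LOC121421717, of 4126 to 6349 in all libraries.

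Calmodulin and DNA polymerase delta subunit 4 each had a lesser copy that differed. LOC121419007, 1 of 4 genes for the calcium sensor calmodulin (chromosome 7, 31381535 to 31388711), had 17.3 to 34.8 normalized counts in mating 1 against 344 to 753 elsewhere, while the 2 main calmodulin genes, LOC121418823 and LOC121419025, held 3906 to 8724, and the range of the summed calmodulin genes was 0.26 on the log2 scale. The partner of the DNA polymerase delta subunit 4 gene, LOC121408448, had 431 to 641 in mating 2 and 564 to 727 in matings 1 and 3. Both copies together averaged 854 ± 168 in mating 2, 625 ± 90.1 in mating 1 and 701 ± 12.4 in mating 3, with overlap of mating 2 with both other matings and a range of the sums of 0.45.

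For some other named genes the sums stayed apart. The range of the sum over genes of the same product name was 6.79 for ficolin-1, 5.63 for dynein light chain LC6, 1.72 for the IFI27-like gene and 1.48 for the DAN4-like gene. For ribonucleoside-diphosphate reductase subunit M2 B, which makes the building blocks of DNA, LOC121430633 had 15500 ± 1494 in mating 2, 1777 ± 179 in mating 1 and 6480 ± 1299 in mating 3, a log2 difference of mating 2 from the others of 2.20 (adjusted p = 1.21e-11, edgeR). The sum of its 3 genes had a range of 2.76. For further named genes the sum was narrow beside the named copy. The range fell from 6.92 to 0.23 for UDP-glucuronosyltransferase 2C1 and from 5.08 to 0.29 for Musashi homolog 2. It fell from 6.73 to 0.31 for P2X7 and from 6.84 to 0.38 for fibrillin-1. For the GABA type B receptor subunit 2, integrin alpha-V and TRIM2 the sums had 0.92, 0.95 and 0.97.

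**Figure D2:**
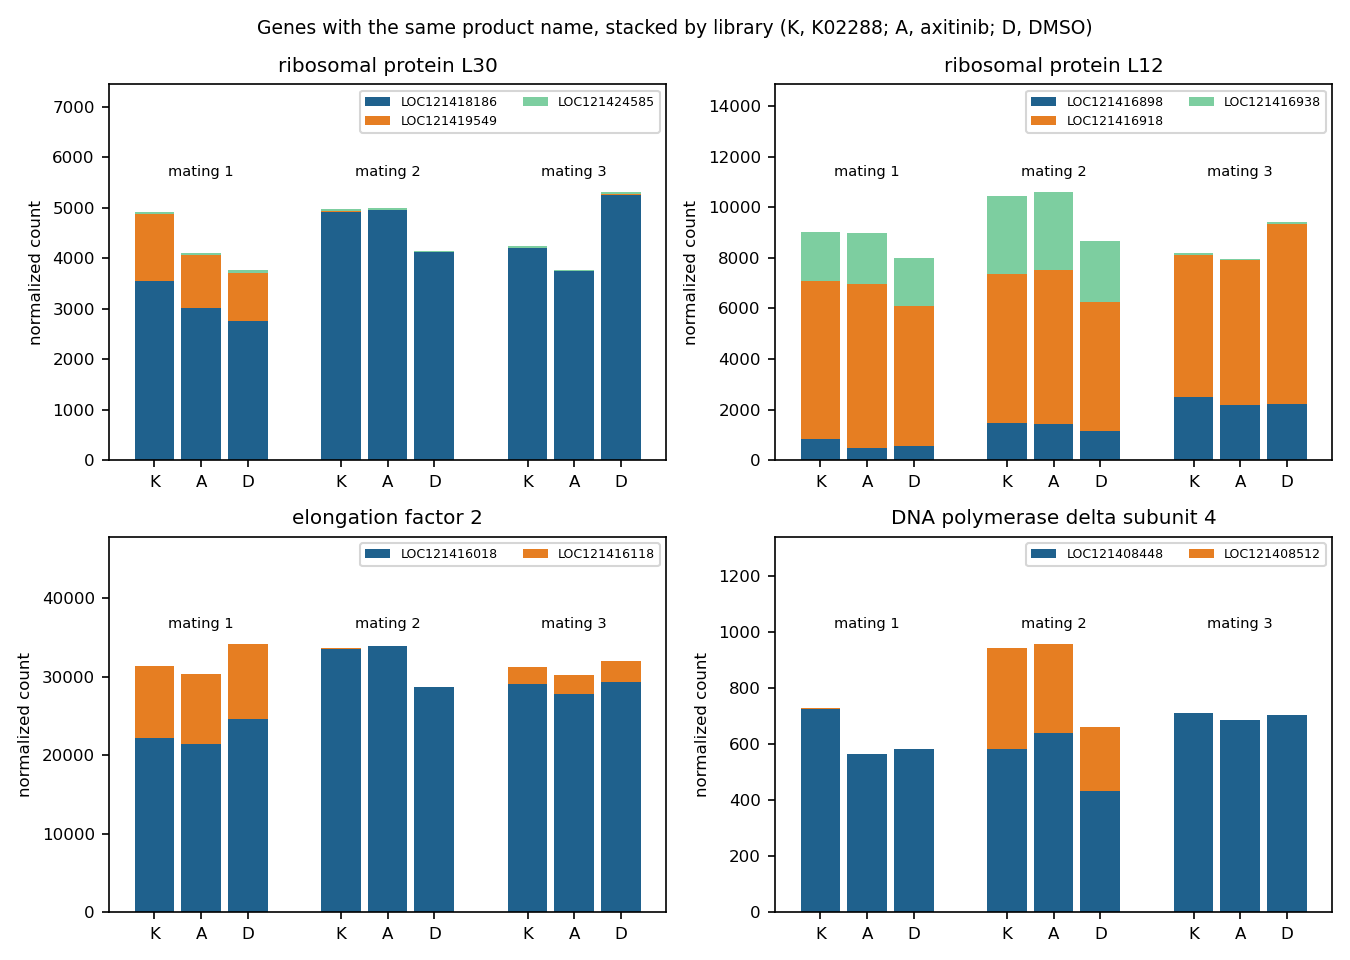
Normalized counts of genes that share a product name, stacked for each library (K, K02288; A, axitinib; D, DMSO) of matings 1, 2 and 3. For L30, L12 and elongation factor 2 the stacked totals are alike between matings although single genes change, whereas DNA polymerase delta subunit 4 is higher in the K02288 and axitinib libraries of mating 2.

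Copies were also summed over all ribosomal protein names. Of 52 cytosolic ribosomal protein names carried by a single tested gene, 2 had a range of at least 1, and the median range was 0.25. These ranges are on the log2 scale of the mean normalized count plus 1. Of 16 names carried by several genes, 34 genes in all, 12 had a member with a range of at least 1, and after summing the copies none did. The median of the widest member was 1.88, against 0.30 for the sums, and the widest sum had 0.66. Over all described genes, 9.35% of the 6470 with a product name of their own varied strongly, against 25.9% of the 6624 that shared a name with another tested gene. The share of strongly varying genes also moved with expression level, and these groups were not matched for it. The median range of the genes that shared a name was 0.67, and that of the 2334 summed names was 0.40. A sum follows its most abundant copies, and the widest member was picked for its range, so narrower sums are likely in any case. These contrasts of members and sums therefore do not show that copies offset one another. Near-identical copies can split or exchange reads when a mating's sequence departs from the reference, so the level of a single copy is uncertain, and whether mapping or transcription moved it was not tested.

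A total of 57 genes, several of those described above among them, were present in at least 1 mating and absent or nearly absent in another, with at most 3 counts in every library of the low mating and at least 50 counts in every library of the high one. They were low in mating 1 for 23 genes, in mating 2 for 28 and in mating 3 for 23, with 17 low in 2 matings, and 29 had no count at all in the 3 libraries of a low mating. Of the 57, 47 were protein coding and 26 had a description, and 11 had another such gene as their neighbour in the tested order. The highest was LOC121410525, an uncharacterized gene (chromosome 1, 28517267 to 28524195), with 545, 802 and 688 normalized counts in mating 1 and 325, 460 and 332 in mating 3 with K02288, axitinib and DMSO. It had no count in mating 2, so that mating 1 was at least 238-fold higher than mating 2. LOC121426873, an uncharacterized gene next to the P2X7-like gene (chromosome 13, 34008561 to 34020166), had no count in mating 1, 263 to 342 in mating 2 and 160 to 172 in mating 3, the same order as its neighbour, and mating 1 was at least 96.8-fold lower than mating 2. LOC121414541, also uncharacterized, had 0 to 1.80 in mating 2, 83.7 to 92.4 in mating 1 and 359 to 457 in mating 3. LOC121426781 had 294 to 356 in mating 2, 7.60 to 15.4 in mating 1 and 0 to 1 in mating 3.

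Gene families differed in how much they varied. In 46 families with at least 10 tested members, the share of strongly varying members ran from 0% to 58.3%, against 20.9% of all genes tested. The 5 leading families were those of mobile elements, innate immune receptors and detoxifying enzymes. Of 115 genes described by a reverse transcriptase, integrase or transposase, enzymes that copy or move mobile elements, 67 (58.3%) varied strongly, with a median range of 1.60. Of 57 genes with a NACHT domain, the nucleotide-binding domain of NOD-like immune receptors, 33 (57.9%) did, with a median range of 1.78. Flavin-containing monooxygenases had 7 of 14 (50%), glutathione S-transferases 16 of 33 (48.5%), and fibrinogen-related proteins, to which the ficolins belong, 6 of 13 (46.2%). Cytochrome P450 enzymes followed with 33 of 74 (44.6%), tubulins with 21 of 49 (42.9%) and C-type lectin domain proteins with 28 of 69 (40.6%).

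The ranking moved with expression level. The filter on low counts was applied by mating, so that a low gene could be tested through the mating in which it was high and then had to vary. Of the mobile element genes 115 of 447 were tested, with a median of 19.9 normalized counts, of the NACHT genes 57 of 132, with 44.2, and of the fibrinogen-related genes 13 of 49, with 38.2, and the shares and ranks of these families rest in part on such members. In the lowest expression tertile 36.7% of genes varied strongly, in the middle 17.2% and in the highest 8.73%. Among the 10069 genes with a mean of at least 100 normalized counts the share was 11.9%. At that level, a choice made after the first ranking had been seen, the NACHT family had 2 of 21 (9.52%), while glutathione S-transferases had 7 of 18 (38.9%), flavin-containing monooxygenases 4 of 11 (36.4%), mobile element enzymes 8 of 22 (36.4%), cytochrome P450 enzymes 14 of 39 (35.9%) and tubulins 12 of 34 (35.3%). The NACHT share was thus near that of all genes at that level, and the shares of the detoxifying enzymes stood above it. By biotype, 41.5% of long non-coding RNAs and 19.7% of protein-coding genes varied strongly, counted over all tested genes. Of the long non-coding RNAs 727 of 2335 were tested, with a median of 39.1 normalized counts. Of the protein-coding genes 15903 of 22667 were tested, with a median of 154. The biotypes were not compared at the same level.

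**Figure D3:**
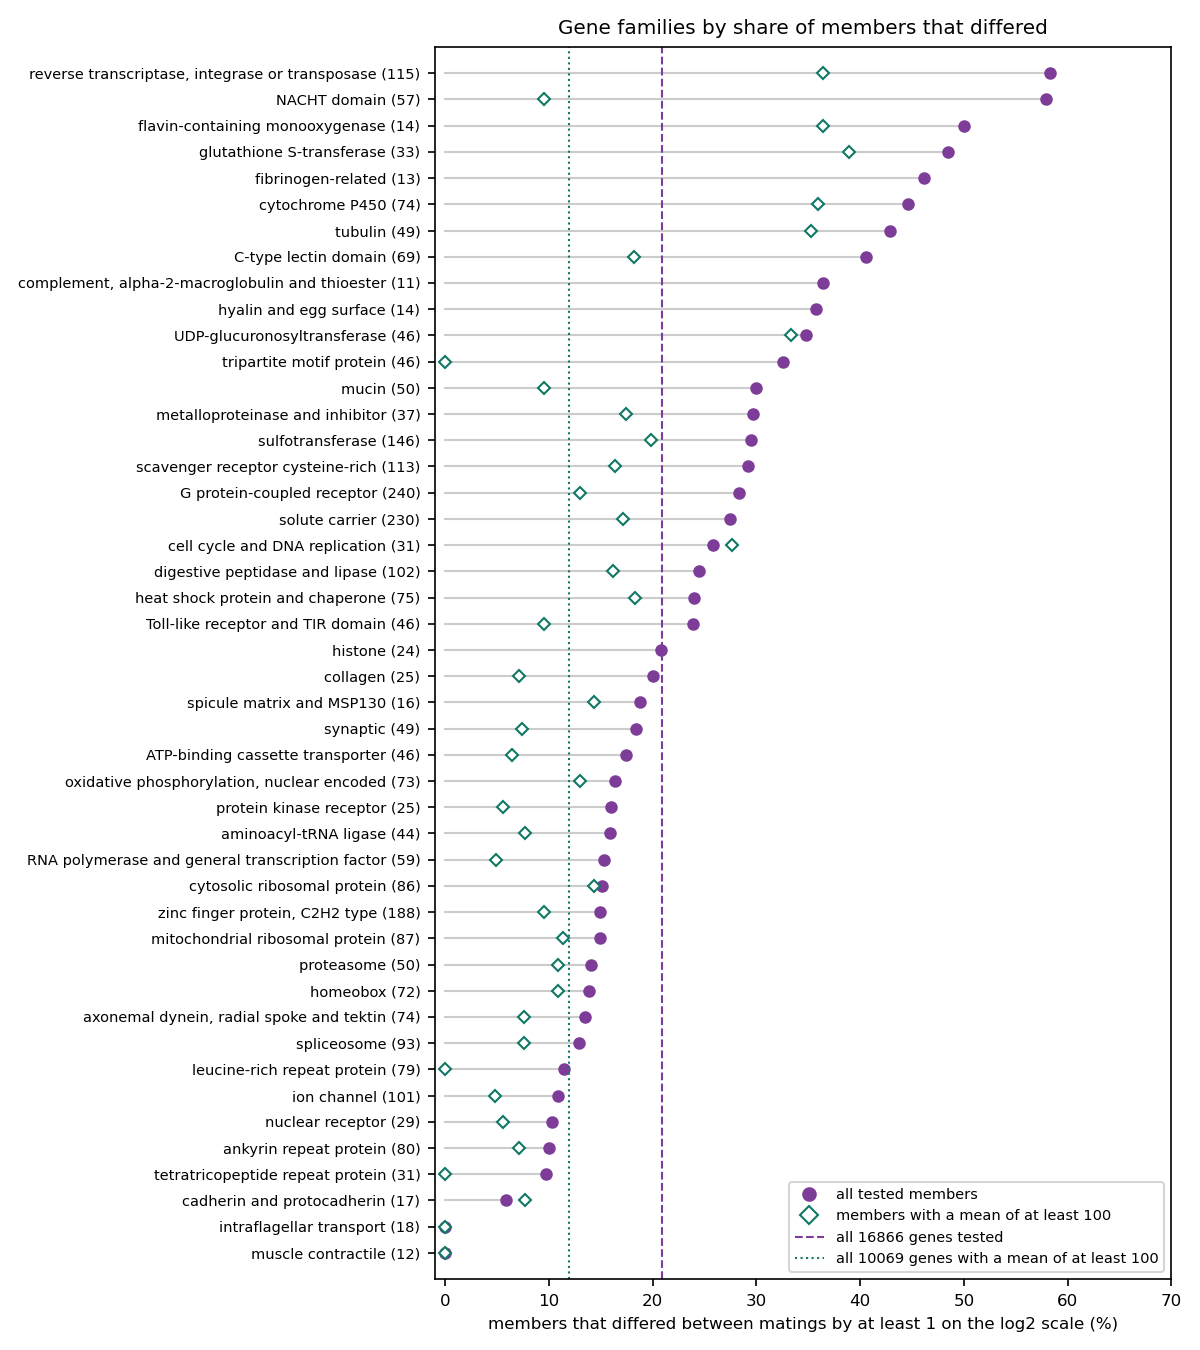
Share of tested members that varied strongly between matings (adjusted p under 0.05 and a range of at least 1) in 46 gene families, with the number of tested members in parentheses; filled circles are all tested members, open diamonds are members with a mean of at least 100 normalized counts (shown where there are at least 10), and vertical lines give all genes. Mobile element and NACHT genes lead at 58.3% and 57.9%, and among members of at least 100 normalized counts glutathione S-transferases lead at 38.9%.

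The members of these families moved in different directions. Among glutathione S-transferases, which couple glutathione to foreign compounds, 11 were higher and 5 lower in mating 1, 8 higher and 11 lower in mating 2 and 8 higher and 7 lower in mating 3. LOC121418743, a microsomal form 1, had 158, 186 and 154 normalized counts in mating 1 with K02288, axitinib and DMSO against 15.6 to 29.2 elsewhere, a log2 difference of 2.77 with an SE of 0.20 (adjusted p = 1.64e-08, edgeR). LOC121409490, a theta-3-like form, had 15 to 20.1 in mating 2 against 86.8 to 152 elsewhere, and LOC121413363, a microsomal form 3, had 53.5 to 112 in mating 1 against 137 to 386 elsewhere. The first was high in mating 1, the second low in mating 2 and the third low in mating 1.

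Flavin-containing monooxygenases, which oxidize nitrogen and sulphur in foreign compounds, were shifted less. LOC121426476 had 91.9 to 121 normalized counts in mating 2, 288 to 379 in mating 1 and 171 to 220.4 in mating 3. LOC121429190 had 213 to 217 in mating 2 against 86.4 to 166 elsewhere, and LOC121424974 had 117 to 165 in mating 1 against 225 to 353 elsewhere. In the cytochrome P450 family, LOC121432083, like the inducible oxidase CYP1A1 and named after its values were seen, had 69.9 to 112 in mating 2, 306 to 514 in mating 1 and 184 to 256 in mating 3, with a range of 2.31 (adjusted p over the 3 matings = 2.87e-08, edgeR).

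Among the ficolins, LOC121426799 had 558, 563 and 603 normalized counts in mating 3 with K02288, axitinib and DMSO against 190.2 to 276 elsewhere, a log2 difference of 1.26 with an SE of 0.10 (adjusted p = 2.88e-08, edgeR). LOC121426578 had 256 to 323 in mating 3 against 109 to 171 elsewhere. Together with LOC121426369, these are 3 ficolin genes of chromosome 13 that were higher in mating 3. Of the 13 tested fibrinogen-related genes 6 lie on chromosome 13, and 5 of them varied strongly.

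The NACHT genes gathered on chromosome 6, which held 18 of the 57, and 15 of these varied strongly. LOC121416767 (175709 to 267447) had 43.1, 25.2 and 41.5 normalized counts in mating 2 with K02288, axitinib and DMSO against 354 to 523 elsewhere, a log2 difference of -3.40 with an SE of 0.18 (adjusted p = 5.34e-10, edgeR). LOC121416770 (440580 to 503780) had 10.5 to 22.1 in mating 2, 35.9 to 71.4 in mating 1 and 98.6 to 199 in mating 3. LOC121416776 (593174 to 647144) went another way, with 7.60 to 22.1 in mating 1 against 63.9 to 124 elsewhere. These 3 genes are uncharacterized and were placed in the family by the protein domain (Pfam) identifiers of the deposited table.

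The tested genes of mobile elements were spread over 19 chromosomes. LOC121406969 had 15.2 to 17.8 normalized counts in mating 1, 145 to 229 in mating 2 and 219 to 436 in mating 3, a log2 difference of mating 1 from the others of -3.89 with an SE of 0.20 (adjusted p = 2.87e-10, edgeR). LOC121427882, derived from a piggyBac transposase, had 12.5 to 25 in mating 1, 119 to 135 in mating 2 and 58.6 to 91.1 in mating 3. LOC121411820 had 9.40 to 21.2 in mating 1, 35.4 to 52.2 in mating 2 and 90.2 to 128 in mating 3. All 3 were lowest in mating 1 under each treatment.

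A few families shifted mostly in 1 direction. Of 31 tested genes of the cell cycle and DNA replication, 17 were higher and 2 lower in mating 2, against 18.5% and 17.9% of all genes, with a median log2 difference of 0.23. In mating 1, 4 were higher and 11 lower, and in mating 3, 3 were higher and 9 lower. LOC121416277, a cyclin B that drives entry into mitosis, had 1201, 1058 and 933 normalized counts in mating 2 with K02288, axitinib and DMSO against 382 to 684 elsewhere, a log2 difference of 1.05 (adjusted p = 2.43e-07, edgeR). LOC121429541, for the replicative helicase subunit MCM7, had 918 to 1065 in mating 2 against 379 to 722 elsewhere, a difference of 0.98 (adjusted p = 2.98e-07, edgeR). Both were named after their values were seen. The 12 tested marker genes of proliferating cells summed to 26730 to 29790 in mating 2, against 19490 to 22600 in mating 1 and 21700 to 24190 in mating 3, without overlap, and 9 of them were higher in mating 2. These markers, such as cyclins and replication licensing factors, are genes of the same kind as the family above. Their sum is therefore not a separate result.

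Proteasome genes, whose products degrade tagged proteins, had 21 higher and 5 lower of 50 in mating 2, and in mating 3, 9 higher and 17 lower, where the shares of all genes were 18.2% higher and 17% lower, so that the count of higher genes in mating 3 was at the background. Histone genes, for the proteins that package DNA, had 7 higher and none lower of 24 in mating 2, and none higher and 6 lower in mating 1. Poly-A selected libraries miss most replication-dependent histone mRNA, which has no poly-A tail. LOC121422407, a histone H1-delta-like gene named after its values were seen, had 24297 to 30591 normalized counts in mating 2, 13985 to 18011 in mating 1 and 20810 to 26070 in mating 3.

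Heat shock proteins and chaperones, which help proteins fold, had 23 higher and 7 lower of 75 in mating 2, and 8 higher and 22 lower in mating 3. LOC121428778, described as heat shock 70 kDa protein IV-like and named after its values were seen, had 195 with K02288, 2067 with axitinib and 467 with DMSO in mating 1, 331, 303 and 196 in mating 2 and 69.5, 158 and 38.7 in mating 3. It was lower in mating 3 by a log2 difference of -2.51 (adjusted p = 0.000101, edgeR), with the axitinib library of mating 1 far above the rest. The constitutive forms LOC121411197 and LOC121411147, also named after their values were seen, ran against each other, with 530 to 873 and 88 to 138 in mating 2, and 57.7 to 140 and 241 to 749 elsewhere.

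Digestive peptidases and lipases, products of the gut, had 11 higher and 32 lower of 102 in mating 2, and 27 higher and 8 lower in mating 1. LOC121408671, like the pancreatic enzyme carboxypeptidase B and named after its values were seen, had 22, 33.2 and 24.8 normalized counts in mating 2 with K02288, axitinib and DMSO against 177 to 399 elsewhere, a log2 difference of -3.42 (adjusted p = 1.01e-09, edgeR). The 53 tested gut marker genes summed to 30360 to 32610 in mating 2, 30660 to 39450 in mating 1 and 25400 to 34730 in mating 3, and their sums overlapped, with 3 higher and 20 lower in mating 2.

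Spicule matrix and MSP130 genes, expressed by the PMCs that build the larval skeleton, had none higher and 8 lower of 16 in mating 3, and 6 higher and 1 lower in mating 1. LOC121406020, a 30 kDa spicule matrix protein alpha-like gene and the most abundant of those described here, had 20248, 15299 and 30734 normalized counts in mating 1 with K02288, axitinib and DMSO, 19022, 12204 and 21728 in mating 2 and 14941, 8431 and 22616 in mating 3. It was lower in mating 3 by a log2 difference of -0.42 (adjusted p = 0.00141, edgeR), with overlap between matings. LOC121427724, an MSP130-like gene, had 803 to 1080 in mating 1 against 346 to 438 elsewhere, a difference of 1.24 (adjusted p = 5.82e-08, edgeR). Both were named after their values were seen. The drug libraries take part in these means, and the sums of the PMC markers overlapped between matings. Axonemal dynein, radial spoke and tektin genes, which form motile cilia, had 8 higher and 25 lower of 74 in mating 2 and 24 higher and 7 lower in mating 1, against 16.9% higher and 14.9% lower of all genes in mating 1. Cadherins and protocadherins, for cell adhesion, had none higher and 7 lower of 17 in mating 2.

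**Figure D4:**
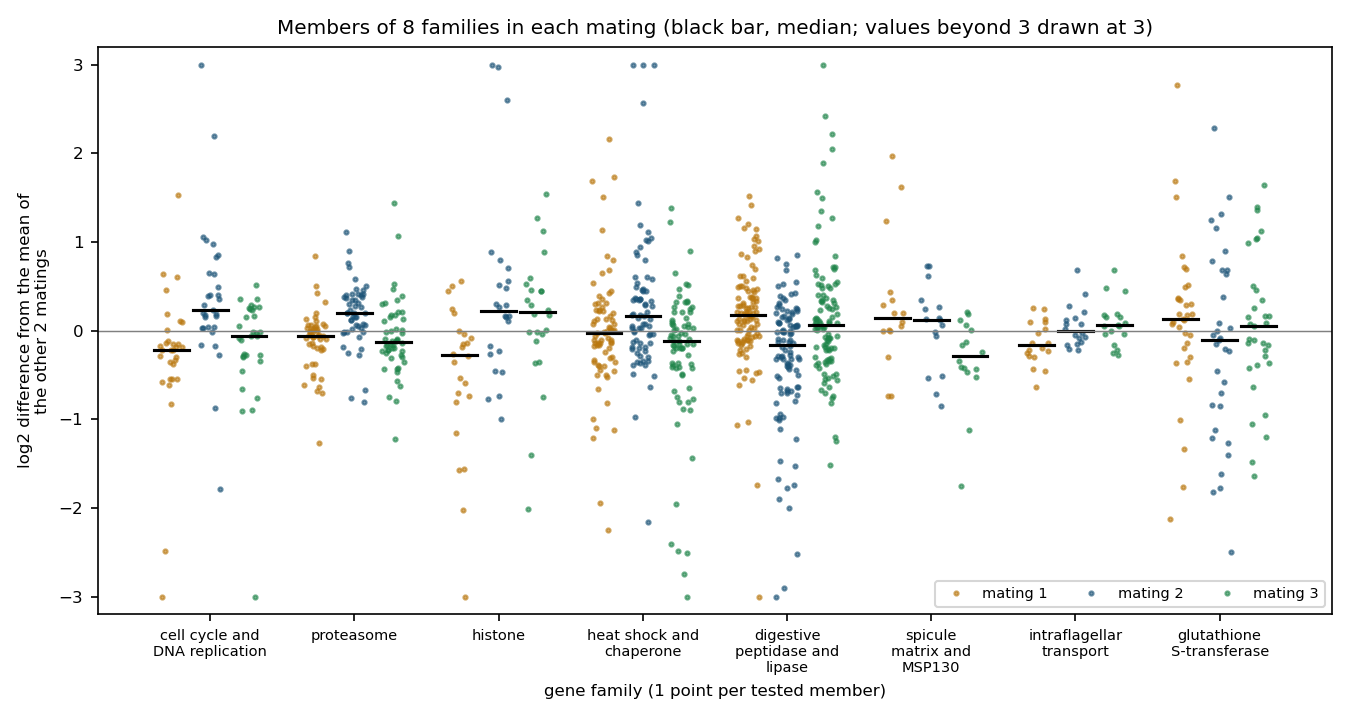
Log2 difference of each tested member of 8 gene families from the mean of the other 2 matings, for matings 1, 2 and 3, with 1 point per gene, a black bar at the median and values beyond 3 in either direction drawn at that limit. Cell cycle genes sit mostly above 0 in mating 2, with a median of 0.23 and 17 of 31 called higher, whereas glutathione S-transferases spread to both sides in every mating.

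Mitochondrial genes varied by transcript. Of 27 tested, 23 differed and 15 (55.6%) varied strongly, against 52.7% and 20.9% of all genes. In mating 3, 2 were higher and 20 lower, against 18.2% and 17% of all genes. Many of the strongly varying genes were for transfer RNAs (tRNAs) and had low counts. The 2 higher in mating 3 were tRNAs. A tRNA-Ser gene had 17 to 32 normalized counts there and 0 to 4 elsewhere. The tRNA-His gene had 17 to 24 against 0 to 2. The large ribosomal RNA (16S) had 182621 to 264226 normalized counts in mating 1 against 79006 to 110446 elsewhere, a range of 1.21. The small ribosomal RNA (12S) was instead highest in mating 2, with 5957 to 6982 against 2080 to 3315. ND1, a subunit of respiratory complex I, had 7898 to 10567 in mating 3 against 16471 to 22238 elsewhere, and COX1, the catalytic subunit of complex IV, had 121028 to 158365 in mating 3 and a range of 0.29 over the matings. The ribosomal and messenger RNAs among these carry poly-A tails of varied length. Their levels in poly-A libraries therefore also depend on the selection, whose part was not tested.

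The 8 described genes that varied least, among those with a mean of at least 500 normalized counts, had roles in protein turnover, chromatin, cell division, translation and signalling. LOC121418334, for proteasome subunit alpha type-3 (chromosome 7, 7438291 to 7452748), had 1006 to 1092 normalized counts in all 9 libraries, with means of 1055 ± 34.4, 1035 ± 31.6 and 1046 ± 14.1 in matings 1, 2 and 3 (SD, n = 3 each; adjusted p = 0.959, edgeR). LOC121411617, for the chromatin factor enhancer of polycomb 1, had 1058 to 1152. LOC121424833, for CDC27, a subunit of the anaphase-promoting complex, had 705 to 785. LOC121429694, for the scaffold protein DLG1, had 3104 to 3454.

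LOC121410552, for activin receptor type-2A, a receptor of the TGF-beta superfamily, had 2123 to 2397 normalized counts, and LOC121408146, for the microtubule-binding protein SLAIN2, had 514 to 574. LOC121418789, for the translation initiation factor eIF5, had 2779 to 3089, and LOC121409239, a 14-3-3 adaptor protein, 11586 to 12884. Among 3210 described genes with a mean of at least 500, these 8 had an SD over the 9 libraries of at most 0.056 on the log2 scale, against a median of 0.217. They were chosen for that SD, so their values are a description. Some highly expressed families had a narrow median range or no strongly varying member. In the highest expression tertile 8.73% of genes varied strongly and the median range was 0.38. None of 18 intraflagellar transport genes, which carry cargo along cilia, varied strongly, and their median range was 0.28. None of 12 muscle contractile genes did, but their median range of 0.40 was not below the tertile's. In families this small, a share of 8.73% is only a few genes. Cytosolic ribosomal proteins had a median range of 0.32, though 13 of 86 (15.1%) varied strongly. The median range of proteasome genes, at 0.42, was not below the tertile's. Of the genes with a mean of at least 500, 63.6% differed between matings.

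Mating also bore on the drug comparisons. Without a mating term, K02288 changed 399 of 16288 genes (2.45%) with an unadjusted p no higher than 0.05, the threshold of the study, and axitinib 777 of 16035 (4.85%), and at an adjusted p under 0.05 the counts were 1 (0.00614%) and 20 (0.125%; edgeR). With the replicate block, that is, with mating as a term, K02288 changed 2144 (13.2%) and axitinib 2859 (17.8%) at the unadjusted threshold, and 469 (2.88%) and 998 (6.22%) at the adjusted one. Of the 469 and 998 genes, 74.2% and 70.5% also differed between matings, against 52.7% of all genes. Both tests used the same libraries and call well-expressed genes more readily. In the highest expression tertile 63.7% of genes differed between matings. The share of all genes is thus not a matched background, and a link between the 2 sets of calls was not tested.

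The sign of the drug ratios was compared over all tested genes, most of which passed no drug test. With K02288, 5796 of 16866 genes (34.4%) had the same sign of the ratio to DMSO in all 3 matings, 3119 higher and 2677 lower, and with axitinib 6402 (38.0%) did, 3350 higher and 3052 lower. These shares do not measure how far a response was shared, since genes without a response are among them. Ratios between matings correlated across genes with r of 0.138, 0.164 and 0.184 for K02288 and 0.244, 0.304 and 0.320 for axitinib, as a description of libraries that share no control. A change of at least 2-fold was seen in 1262, 1047 and 1155 genes with K02288 in matings 1, 2 and 3 and in 1422, 1388 and 1520 genes with axitinib, and it was in the same direction in all 3 matings for 61 and 165 genes. Each ratio rests on 1 library against 1 library.

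Whether the response itself differed by mating was tested for 1 treatment at a time, with the other 2 assumed to add to the mating, which left 2 residual degrees of freedom. The K02288 library departed by mating in 14 genes (0.083%) at an adjusted p under 0.05 (edgeR) and in 587 (3.48%) at an unadjusted p of at most 0.05. The axitinib library departed in 13 genes (0.0771%) and 811 (4.81%), and the DMSO library in 5 (0.0296%) and 1021 (6.05%). At the unadjusted threshold a fraction of 0.05 of genes is expected without any departure. Only the share for DMSO, which is no drug, was above that fraction. The unadjusted counts therefore do not show drug responses that differed by mating. Since 1 library decides each value, a drug response that differs by mating and a library that stands apart cannot be told apart.

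The clearest group among the 14 was a set of 4 neighbouring astacin-type metalloprotease genes on chromosome 5, between 9961591 and 10030676. LOC121415235, like blastula protease 10 (BP10), had 10042, 7778 and 5102 normalized counts in mating 1 with K02288, axitinib and DMSO, 2396, 10672 and 7479 in mating 2 and 2762, 4030 and 3786 in mating 3. Its log2 ratio of K02288 to DMSO was 0.98 in mating 1, -1.64 in mating 2 and -0.45 in mating 3 (adjusted p for the difference = 0.000217, edgeR). LOC121415236, like SpAN, which in sea urchin embryos is a protease of the Tolloid and BMP1 kind, had ratios of 1.05, -1.84 and -0.35 (adjusted p = 6.95e-05, edgeR). The 2 further SpAN-like genes, LOC121414863 and LOC121415234, had ratios of 0.66, -1.31 and -0.16 and of 0.99, -1.30 and -0.17. All 4 had the highest ratio in mating 1 and the lowest in mating 2, and their ratios of axitinib to DMSO lay between 0.09 and 0.90 in every mating.

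The other named genes of this test each had a pattern of their own. LOC121419338, like the small GTPase ADP-ribosylation factor, had 2945, 246 and 555 normalized counts with K02288 in matings 1, 2 and 3, against 133, 186 and 81.7 with DMSO. LOC121428698, for ribosomal protein L7a, had 4701 in the axitinib library of mating 2 against 322 to 495 in the other 8 libraries (adjusted p = 8.04e-08, edgeR). LOC121430785, a second ribonucleoside-diphosphate reductase M2 B gene, had 227 with K02288 in mating 2, against 28.2 with axitinib and 20.3 with DMSO there, and 180 to 417 in matings 1 and 3, so that the axitinib and DMSO libraries of mating 2 were the ones apart from the rest. LOC121414802, for the folding enzyme cyclophilin B (peptidyl-prolyl isomerase B), differed in size and not in sign, with log2 ratios of axitinib to DMSO of -1.05, -3.001 and -1.74 in matings 1, 2 and 3 (adjusted p = 0.00321, edgeR).

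**Figure D5:**
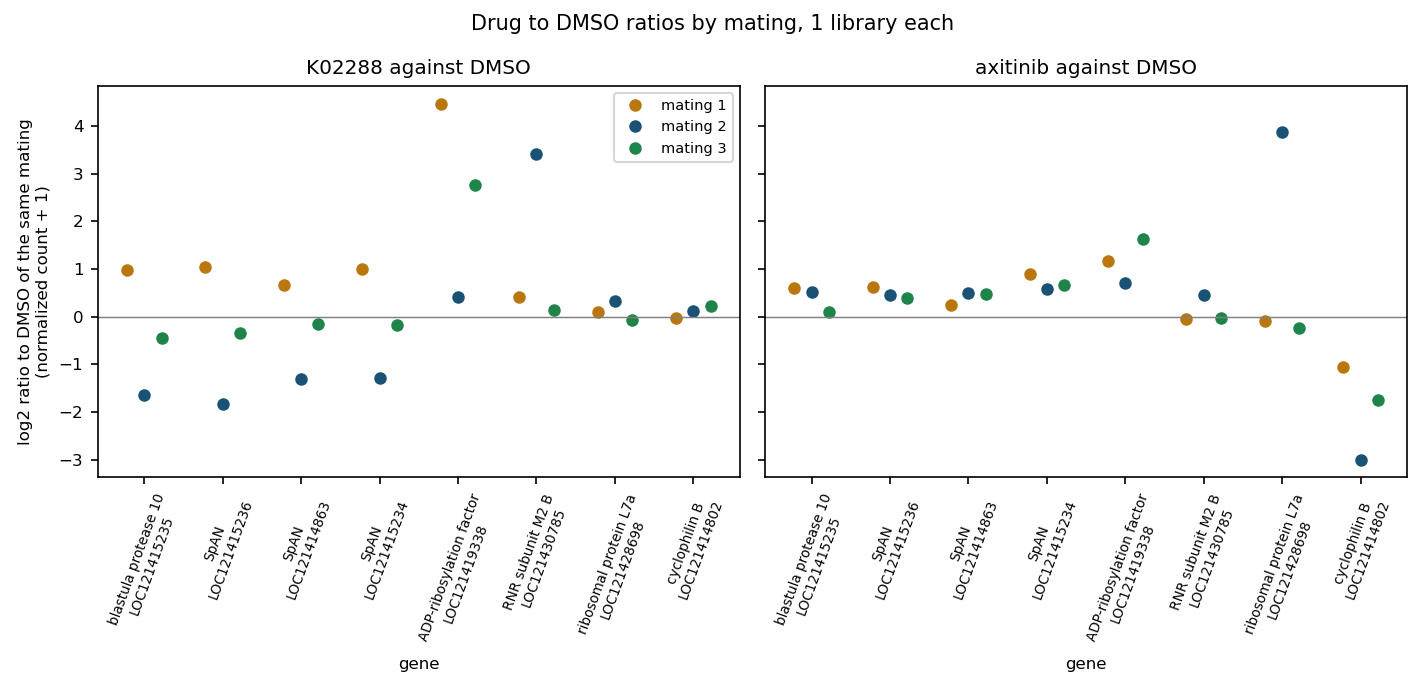
Log2 ratio of the drug library to the DMSO library of the same mating, from normalized counts plus 1, for 8 genes with K02288 on the left and axitinib on the right, 1 point per mating. For the BP10- and SpAN-like genes the K02288 ratios of mating 1 lie between 0.66 and 1.05 and those of mating 2 between -1.84 and -1.30, whereas for LOC121428698 only the axitinib ratio of mating 2, at 3.86, lies far from 0.

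The genes that the study lists as lower with the drugs were lower in every mating. This holds for 16 of 16 tested genes listed for K02288 alone, 21 of 21 for both drugs and 27 of 27 for axitinib alone, but these lists were chosen on these libraries and are not independent evidence. Between matings, 8 of 16, 12 of 21 and 8 of 27 differed, against 52.7% of all genes, and 1, 0 and 0 had a range of at least 1, with median ranges of 0.53, 0.52 and 0.26. The exception was LOC121406359, a second 30 kDa spicule matrix protein alpha-like gene (chromosome 19, 13321586 to 13326420), with 393, 578 and 813 normalized counts in mating 1 with K02288, axitinib and DMSO, 99.5, 83.5 and 496 in mating 2 and 98.6, 17.8 and 550 in mating 3. Its DMSO libraries were closest and its drug libraries farthest apart, with log2 ratios of axitinib to DMSO of -0.49, -2.56 and -4.87 (adjusted p for the difference = 0.0399, edgeR). The other genes of the lists had ranges of at most 0.93, the value of the uncharacterized gene LOC121413455, and 3 further uncharacterized genes, LOC121411291, LOC121410060 and LOC121432130, followed at 0.82, 0.82 and 0.81.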

How the data were processed

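Strand-specific poly-A libraries were sequenced, 1 per mating and treatment. The authors mapped the reads with HISAT2 to genome Lvar_3.0 and deposited raw counts per gene. The HISAT2 version and the counting tool are not given in the sources used here. The authors also deposited FPKM values of the same genes, which were used only in an alternative. The submitters' processing notes name CASAVA 1.8. Positions come from the count table, which held 26814 genes, all matched to RefSeq. Limits for genes without counts (3 counts per library) cover counting error only.

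The main test was the quasi-likelihood F test of edgeR 4.0.16 (R 4.3.3) in a model of mating and treatment, with TMM normalization and filterByExpr grouped by mating. The biological coefficient of variation was 0.125. Drug contrasts used 6 libraries, without and with mating as a term. The study's own test was DESeq2, with no design stated. Matings pair the libraries by the study's methods. The positive correlations within matings in the report bear on the same point, whereas the negative ones between matings do not. Families were matched on gene descriptions and, for some, protein domain (Pfam) identifiers, and 4 of the 49 patterns were corrected after their matches were seen. Members, families and lists were chosen with earlier results of these data known.

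Genes were named by a rule: the 4 highest and 4 lowest per mating with a mean of at least 50 normalized counts, a description and no overlap with the other matings; 3 of each of the 5 leading families; the 8 least variable with a mean of at least 500; 4 per treatment from the test by mating; the 6 highest of the 57 present-or-absent genes; and 5 of the study's lists with the widest range. Genes named outside it are marked in the text, except mitochondrial genes, genes of the test by mating beyond the first 4, and copies of a named gene, which were also chosen with their values seen. Alternatives were RLE normalization, no filter, at least 10 counts in every library, DESeq2 1.42.0, limma-trend 3.58.1 on log2(FPKM + 1), no treatment term, and leaving out treatments or libraries. The tests were tested on simulated data. Figures used matplotlib 3.10.9 in Python 3.11.15.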

Additional observations from a re-analysis of the deposited data

Results flagged for a closer look

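For each treatment, the 4 described genes with the lowest p had a library whose departure from the mating and treatment averages differed between matings, 12 genes in all (edgeR, 2 interaction terms, Benjamini-Hochberg adjustment over 16866 genes). Each rests on 1 library per mating and treatment. With K02288 the adjusted p was 6.95e-05 for the ADP-ribosylation factor-like gene LOC121419338, 6.95e-05 for the SpAN-like gene LOC121415236, 0.000217 for the BP10-like gene LOC121415235 and 0.00122 for the ribonucleoside-diphosphate reductase gene LOC121430785.

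With axitinib it was 8.04e-08 for the ribosomal protein L7a gene LOC121428698, 0.00031 for the THAP domain-containing protein 5-like gene LOC121419569, 0.00321 for the cyclophilin B gene LOC121414802 and 0.00321 for the ADP-sugar pyrophosphatase-like gene LOC121412157. LOC121419569 had 0, 88.6 and 4.50 normalized counts with axitinib in matings 1, 2 and 3, against 101, 0 and 0 with DMSO, and DESeq2 did not call it. LOC121412157 had 1, 35.2 and 4.50 with axitinib, against 112, 11.5 and 84.8 with DMSO.

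For the DMSO libraries it was 0.00917 for the gene LOC121413537, like the RNA-binding protein NONO, 0.0125 for the ribosomal protein S16 gene LOC121422039, 0.0222 for the AHNAK-like gene LOC121418701 and 0.0222 for the steroid 17-alpha-hydroxylase-like gene LOC121431603. LOC121413537 had 818, 1283 and 2120 normalized counts with DMSO in matings 1, 2 and 3. Its K02288 libraries had 874, 336 and 893 and its axitinib libraries 780, 298 and 1067. The S16 gene had 87.4, 114 and 292 in mating 3 with K02288, axitinib and DMSO, against 557 to 1599 elsewhere.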

How the results depend on the processing

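Counts of genes that differed between matings ranged from 6239 without the K02288 libraries to 9728 without a filter, against 8895 as reported, and limma-trend on log2(FPKM + 1) called 7796, of which 1744 varied strongly against 3524. Without 1 library at a time the counts were 7562 to 8361 over the 3 matings, 3833 to 5129 for mating 1, 4431 to 5891 for mating 2, 3988 to 5727 for mating 3, 4397 to 5736 for matings 2 and 1, 3924 to 5778 for matings 3 and 1 and 4631 to 6494 for matings 3 and 2. Without the K02288 libraries 3472, 3809 and 3432 genes differed in mating 1, in mating 3 and between matings 3 and 1. In the test by mating, no filter gave 109, 140 and 187 genes for K02288, axitinib and DMSO, and limma-trend gave 8, 6 and 0, with 870 genes at an unadjusted p under 0.05 for DMSO. For DMSO, RLE normalization gave 13, DESeq2 17 and at least 10 counts in every library 2. With the replicate block the drug calls at an unadjusted p of at most 0.05 were 2144 for K02288 and 2859 for axitinib, and without 1 library at a time, in the fit without the block, 334 to 391 and 621 to 762. Of the 5 leading families 3 stayed leading with a range of at least 0.5, and 3 with members of at least 100 normalized counts, an alternative chosen after seeing the data. The 57 present-or-absent genes became 36 with at most 1 count, 181 with at least 20 and 27 with at least 100. No named gene reversed under these alternatives, and no gene named for its difference between matings, its family or its absence lost its call where it was tested. With at least 10 counts in every library only 3 of the 24, 12 of the 15 and 0 of the 6 such genes were tested. Without a treatment term the 5 genes named from the study's lists lost their calls, and of the genes named from the test by mating, calls were lost under DESeq2, limma-trend or at least 10 counts. LOC121432130 of the lists had an adjusted p of 0.0761 without the K02288 libraries (edgeR). The cause of these shifts was not tested. With 1 library per mating and treatment, depth limits the low genes most.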

Other observations

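Strongly varying genes were unevenly spread over the genome. Chromosome 6 had 217 of 594 tested genes (36.5%) and chromosome 4 362 of 1135 (31.9%), against 143 of 1140 (12.5%) on chromosome 7. A strongly varying gene was followed by another in 28.9% of cases, and any other gene was followed by one in 18.7%. The longest run was 14 genes on chromosome 6, from 593174 to 1972124, with NACHT genes among them. In neighbouring strongly varying genes the same mating stood highest or lowest in 26.2% of 1017 pairs, against 18.2% of all pairs of neighbours compared. These shares are descriptions, and neighbouring genes are not independent.

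Ribosomal RNA genes, the mitochondrial 16S and 12S genes among them, took 1.71% to 2.41% of counts in mating 1, 0.959% to 1.02% in mating 2 and 0.778% to 1.05% in mating 3, so that mating 1 lay apart. The 16S gene was described above as highest in mating 1, so this is not a separate result. Of 19 tested neuron marker genes 8 differed between matings, and of 7 muscle marker genes 1 did, while 8 of 10 pigment cell markers did, with 4 higher in mating 1 and 4 lower in mating 3. The pigment cell markers were polyketide synthases and flavin-containing monooxygenases. The latter are among the leading families above, so this count is not a separate result on a cell type. Of all tested genes 52.7% differed.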
